A study of Drosophila melanogaster with 50 samples.

Results

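The metallothionein genes MtnA, MtnB, MtnC and MtnD are described here across 50 arrays of whole adult flies (imagoes) of the wild-type strain Oregon R, exposed for several days to altered gravity in ground based facilities. They are 4 of the 11982 genes with a single-symbol probe set on the array, and each of them stood on 1 probe set. The group was selected on the MtnD values of flies aged 5 d, which were lower in the centrifuge at 2g than at 1g. That comparison, and each comparison with an array of it in a group compared, is therefore given as values and differences with no test. The tests of centrifuge flies aged 20 d compare other arrays. Their spread, however, was estimated over all 16 centrifuge arrays, those of the picking contrast included, so their p values are not fully apart from it.

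Metallothioneins are small proteins rich in cysteine that bind copper, zinc and cadmium. In Drosophila their genes are switched on by the metal-responsive transcription factor MTF-1, and the copper cells of the midgut are a well-known site of their expression. MtnA is the member best known for its response to copper and MtnB for its response to cadmium. MtnC and MtnD belong to the same family, and flies that lack it survive poorly on food rich in copper or cadmium. RefSeq (Release 6) places MtnA, MtnB, MtnC and MtnD on chromosome arm 3R. Between MtnB and MtnD 3 protein-coding genes start, between MtnB and MtnC 5 and between MtnC and MtnD 9, whereas 1256 or more start between MtnA and any other member. The family members MtnE and MtnF had no probe set of their own in the annotation used and were not analysed here.

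In the random positioning machine (RPM) flies turned at random, at a g level labelled 0g, and RPM controls stood outside at 1g. RPM arrays came from flies aged 5 d at 14C and were labelled males (4 arrays at 0g, 3 at 1g) or labelled females (3 at 0g, 3 at 1g). In the magnetic levitator the asterisk marks a place inside the magnet's field, and females aged 5 d were held at 14C at 0g*, 1g* or 2g* (3 arrays each), or outside at 24C (3) or at 14C (2). A separate set of magnet runs lasted 80 h, with females at 0g* (2 arrays) and 1g* (2) at 14C and females outside at 24C (3). The large diameter centrifuge (LDC) held females at 22C at 2g (4 arrays), at its rotational control (1g-rot, 2) or outside at 1g (2), once at 20 d of age and once at 5 d. The sample titles call the replicates biological, but the labels give no number of flies per array, so the spread between arrays is the only error available. Whole flies were extracted, so fewer cells of a type and less RNA per cell cannot be told apart.

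Transcripts that mark the sexes ran against the RPM labels. The RPM arrays labelled males had median levels of 10 eggshell genes of 10.5 to 12.3 log2 units, and those labelled females had medians of 4.98 to 8.87. Transcripts of both sexes were found on 6 arrays, which were 1 labelled males 0g array, 2 labelled females 0g arrays and 1 labelled females 1g array of the RPM, 1 magnet 1g* array and 1 magnet 80 h 1g* array. The 7 arrays of the 80 h runs also had the largest difference between the 3' and the 5' end of the eIF-4a control transcript, a sign of RNA quality (2.43 to 3.34 log2 units, against 0.62 to 1.88 on the other arrays).

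All 4 members were above the background of the plant control probe sets (3.86 to 4.49) on all 50 arrays. MtnA lay between 12.55 and 13.94 log2 units, with a median of 13.58, while the highest value of any probe set on any array was 14.42. Whether the top of the scale limited differences in MtnA was not tested. MtnB ran between 5.11 and 10.06 (median 7.38), MtnC between 6.63 and 10.2 (median 8.74) and MtnD between 6.46 and 10.78 (median 8.46). The range over the 50 arrays was 4.95 log2 units for MtnB, 4.32 for MtnD, 3.57 for MtnC and 1.39 for MtnA. Over all genes the median range was 1.8, and 94.8% of genes had a smaller range than MtnB, 91.8% than MtnD, 86.1% than MtnC and 34.6% than MtnA. The lowest MtnA, MtnB and MtnD values lie on LDC 5 d 2g replicate 1, an array of the contrast that picked the genes, so nothing is read from these ranges.

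**Figure D1:**
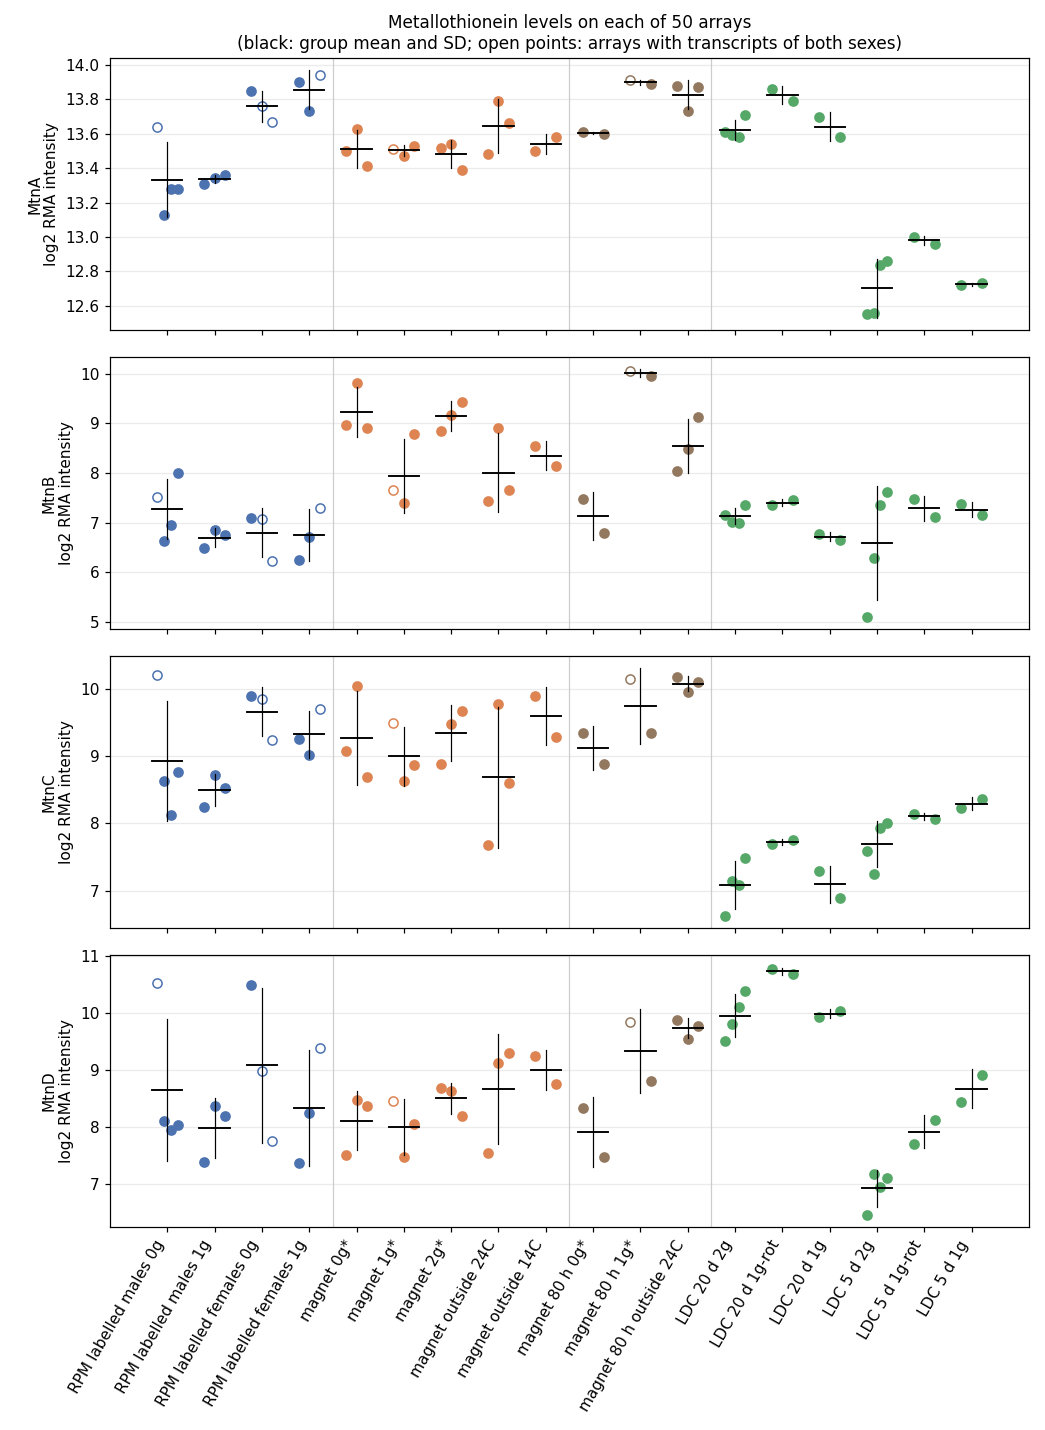
Level of each metallothionein gene (log2 RMA intensity, one panel per gene with its own axis) on each array, by group along the horizontal axis. Black lines are group means and SDs, and open points are the 6 arrays with transcripts of both sexes. MtnB is highest on the 80 h 1g* arrays (10.06 and 9.95), and MtnD is lowest on the LDC 5 d 2g arrays (6.46 to 7.18) and highest at 20 d on the rotational control (10.78 and 10.69).

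The 80 h magnet runs set 0g* against 1g* inside the magnet and against flies outside it, and here all 4 members were lowest at 0g*. MtnD had 8.34 and 7.47 log2 units on the 0g* arrays, against 9.88, 9.55 and 9.78 outside at 24C. Every 0g* array was below every outside array. The difference was -1.83 (SE 0.32), which is 3.56-fold lower, and it passed limma's test with a Benjamini-Hochberg adjusted p of 0.042. This was the only member called of 4, at a share of 0.927% of all probe sets called in that comparison (0.517% called lower). The call was lost when any 1 of the 5 arrays compared was left out, with MtnD differences of -2.27 to -1.40 and adjusted p values of 0.056 to 0.24 (where 1 array was left at 0g*, the other groups supplied the spread).

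MtnB, the cadmium-responsive member, had 7.47 and 6.79 at 0g* for 80 h, against 8.04, 8.48 and 9.12 outside at 24C, a difference of -1.42 (SE 0.30, adjusted p = 0.075, limma). MtnC had 9.35 and 8.89 at 0g*, against 10.18, 9.96 and 10.10 outside (difference -0.96, SE 0.23, adjusted p = 0.12). MtnA had 13.61 and 13.60 at 0g*, against 13.88, 13.73 and 13.87 outside (difference -0.22, SE 0.12, adjusted p = 0.54). So all 4 of 4 members were lower at 0g* with no overlap between the groups, whereas 9.21% of probe sets were. The 0g* flies were at 14C and the outside flies at 24C, so field, levitation and temperature cannot be told apart here. Digestive enzyme transcripts of the midgut moved with this contrast, since the median of the 14 of 16 measured was 10.77 to 11.14 at 0g* and 11.87 to 12.03 outside. The 1 of 3 Malpighian tubule markers measured went the other way, with 9.17 to 9.35 at 0g* and 8.49 to 8.60 outside. The 3' excess of eIF-4a was 2.43 to 2.58 at 0g* and 2.61 to 2.92 outside, without overlap. Their part in the result was not tested.

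Against 1g* inside the magnet and at the same temperature, the contrast was widest in MtnB. The 0g*, 1g* and 2g* places differ in position in the field as well as in g level, and these cannot be told apart here. MtnB had 7.47 and 6.79 at 0g* and 10.06 and 9.95 at 1g* after 80 h. The 1g* arrays were the highest MtnB values of the whole series and lay above both 0g* arrays. The difference was -2.88 (SE 0.33, 95% interval -3.61 to -2.14), which is 7.34-fold lower, with the second smallest p of 18769 probe sets (9.94e-06) but an adjusted p of 0.093 (limma). MtnD had 8.34 and 7.47 at 0g*, against 9.85 and 8.81 at 1g* (difference -1.43, SE 0.35, adjusted p = 0.57). MtnC had 9.35 and 8.89 at 0g*, against 10.14 and 9.35 at 1g* (-0.63, SE 0.25, adjusted p = 0.7), and MtnA had 13.61 and 13.60, against 13.91 and 13.89 (-0.30, SE 0.13, adjusted p = 0.7).

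In this comparison 0 of 4 members were called, at a share of 0.00533% of probe sets, and all 4 had an unadjusted p under 0.05. MtnA, MtnB and MtnD did not overlap between 0g* and 1g* (3 of 4, all lower at 0g*, against 13.4% of probe sets), and MtnC met at 9.35. Replicate 1 at 1g* is the array with transcripts of both sexes (accessory gland median 7.79, against 3.71 on replicate 2), and it had the higher value of every member at 1g*. Eggshell medians were 11.02 to 11.91 at 0g* and 12.51 to 12.72 at 1g*, the 3' excess of eIF-4a was 2.43 to 2.58 at 0g* and 2.69 to 3.34 at 1g*, and their part in the result was not tested. Without that replicate 1 the MtnB difference was -2.82, and without replicate 2 it was -2.93. The MtnD difference was -1.95 without replicate 2. Replicate 2 had the lower MtnB and MtnD at 1g*, so leaving it out must widen both differences. Leaving out either replicate leaves 1 array at 1g*, so no call is read from these fits. The one left without replicate 2 is the array of both sexes.

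Inside the field at 1g*, MtnB was also above the flies outside at 24C (10.06 and 9.95, against 8.04, 8.48 and 9.12), by 1.46 (SE 0.30). Its adjusted p was 0.062 by limma, and 0 of 4 members were called at a share of 1.01% of probe sets, with 1 member at an unadjusted p under 0.05. The MtnB call was made (adjusted p = 0.043) when outside replicate 3, the highest of its group, was left out. Leaving out the outside array nearest to 1g* must widen the difference, so nothing is read from that call. The other members differed by -0.41 to 0.07. MtnA, at 13.91 and 13.89 against 13.88, 13.73 and 13.87, was the other member of 2 of 4 that did not overlap, against 33.3% of probe sets. The 1g* flies were at 14C, and 1 of their 2 arrays holds both sexes. Digestive enzyme medians were 10.89 to 11.07 at 1g* and 11.87 to 12.03 outside, the tubule marker had 9.26 to 9.30 at 1g* and 8.49 to 8.60 outside, and eggshell medians were 12.51 to 12.72 at 1g* and 11.25 to 12.15 outside. Their part in the result was not tested. MtnB stood in the order 1g*, outside, 0g*, and neighbouring groups did not overlap.

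The magnet runs with no stated duration gave MtnB another order. MtnB had 8.97, 9.80 and 8.91 at 0g*, against 7.66, 7.39 and 8.79 at 1g*, and 8.84, 9.17 and 9.43 at 2g*. All 0g* and 2g* arrays were above all 1g* arrays, although 1g* replicate 3 came close. The MtnB difference of 0g* from 1g* was 1.28 (SE 0.41, 95% interval 0.40 to 2.16, adjusted p = 0.13, limma) and that of 2g* from 1g* was 1.2 (SE 0.41, 0.32 to 2.08, adjusted p = 0.32). For 0g* against 1g*, 0 of 4 members were called at a share of 0.0213% of probe sets, and 1 of 4 members did not overlap, against 24.2%. For 2g* against 1g*, 0 of 4 were called at a share of 0%, and 1 of 4 did not overlap, against 15.3%. In each of these comparisons MtnB alone had an unadjusted p under 0.05. The 1g* arrays also differed in other transcripts, with replicate 1 carrying both sexes. The midgut copper cell marker had 6.57 to 6.95 at 0g* and 6.47 to 7.07 at 2g*, against 7.13 to 7.42 at 1g*, and photoreceptor medians were 7.37 to 7.69 at 0g* and 7.50 to 7.94 at 2g*, against 8.11 to 8.70 at 1g*. The tubule marker had 8.87 to 9.17 at 0g* and 8.72 to 9.25 at 2g*, against 9.26 to 9.52 at 1g*, and the 3' excess of eIF-4a was 1.39 to 1.88 at 2g*, against 1.14 to 1.30 at 1g*. Their part in the MtnB values was not tested.

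The 0g* minus 1g* difference in MtnB was therefore negative after 80 h and positive in the other runs, with no overlap in either set. In a single limma fit over all 21 magnet arrays, which was chosen after the values had been seen, the difference after 80 h minus that in the other runs was -4.16 (SE 0.63, adjusted p = 0.016). MtnB was 1 of 4 members called, at a share of 0.032% of probe sets called. The other members did not pass (MtnD -1.54, MtnC -0.90, MtnA -0.31, adjusted p 0.3 to 0.53). Without the arrays of both sexes the MtnB value was -3.96 and the adjusted p 0.19. With each of the 10 arrays compared left out in turn, it was -4.58 to -3.82 and stayed called in 6 of 10 cases. The call was lost without replicate 2 at 0g* (-3.87, adjusted p = 0.063) or replicate 1 at 1g* (-4.01, 0.052) of the other runs, and without replicate 2 at 0g* (-3.82, 0.13) or replicate 1 at 1g* (-4.10, 0.11) of the 80 h runs.

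Against the flies outside the magnet at 14C, MtnD was lower in each of the field groups. MtnD had 7.51, 8.47 and 8.36 at 0g*, 8.46, 7.48 and 8.05 at 1g* and 8.68, 8.63 and 8.19 at 2g*, against 9.25 and 8.75 outside. No field array reached an outside array. The MtnD differences were -0.89 (SE 0.46, adjusted p = 1), -1.0 (SE 0.46, adjusted p = 0.27) and -0.50 (SE 0.46, adjusted p = 1) in the order 0g*, 1g* and 2g*, and only that at 1g* had an unadjusted p under 0.05 (0.0482). These 3 comparisons share the 2 outside arrays, and limma called 0 of 4 members in each, at shares of 0%, 0.0266% and 0% of probe sets. MtnB was 0.88 (SE 0.46) above the outside arrays at 0g* and 0.80 (SE 0.46) above them at 2g*, with no overlap, and at 1g* its difference was -0.40 (SE 0.46). Without overlap were thus 2 of 4 members at 0g*, 1 of 4 at 1g* and 2 of 4 at 2g*, against 15.2%, 28.7% and 15.1% of probe sets. At 1g* the copper cell marker had 7.13 to 7.42, against 6.45 to 7.01 outside, the tubule marker 9.26 to 9.52, against 8.32 to 8.96, photoreceptor medians were 8.11 to 8.70, against 7.54 to 7.90, and eggshell medians 6.40 to 11.92, against 12.61 to 12.95. The 3' excess was 1.90 to 2.03 for GAPDH at 0g*, against 1.66 to 1.87 outside, and 1.39 to 1.88 for eIF-4a at 2g*, against 1.0 to 1.22 outside. Their part in these values was not tested.

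Temperature outside the magnet was compared in the same runs. MtnC had 7.68, 9.77 and 8.60 at 24C, against 9.90 and 9.29 at 14C, a difference of -0.91 (SE 0.52, adjusted p = 0.72, limma). Its arrays at 24C were spread over 2.09 log2 units and overlapped those at 14C. Of the 4 members 0 were called, at a share of 0.48% of probe sets, none had an unadjusted p under 0.05, and 0 of 4 were without overlap, against 19.7%. The lowest of the arrays at 24C, replicate 1, is titled 24C but has 14C in its temperature field, and with it placed at 14C the MtnC difference was 0.23. Photoreceptor genes had a median of 5.53 there. At 24C replicates 2 and 3 had 5.60 and 5.30, against 7.54 and 7.90 at 14C. The flies outside at 24C in the 80 h runs had 7.49 to 7.67, so a low median was not shared by all arrays labelled 24C. The temperature of replicate 1 is not read from it. Between 2g* and 0g*, limma called 0 of 4 members (0% of probe sets), no member had an unadjusted p under 0.05, and 0 of 4 were without overlap, against 10.3%.

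In the centrifuge at 20 d, 2g was set against the flies outside and against the rotational control. MtnD had 9.51, 9.80, 10.10 and 10.39 at 2g, against 9.93 and 10.04 outside at 1g. The 2g arrays lay on both sides of the 1g arrays, and the MtnD difference was -0.04 (SE 0.23, 95% interval -0.53 to 0.46, adjusted p = 0.98, limma). MtnB had 7.15, 7.01, 7.0 and 7.35 at 2g, against 6.78 and 6.66 at 1g (0.41, SE 0.46, adjusted p = 0.84), and its SE, which is shared over all LDC groups, includes the wide 5 d 2g arrays. MtnA and MtnC overlapped between 2g and 1g. Of the 4 members 0 were called, at a share of 0.852% of probe sets, none had an unadjusted p under 0.05, and 1 did not overlap, against 19.5%. The 3' excess of eIF-4a was 0.99 to 1.26 at 2g and 0.79 to 0.81 at 1g. Digestive enzyme medians were 11.42 to 11.55 at 2g and 11.3 at 1g, and photoreceptor medians 7.14 to 7.62 at 2g and 7.8 to 7.97 at 1g. Their part in these values was not tested.

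At the rotational control MtnD had 10.78 and 10.69 at 20 d, and all 4 arrays at 2g were below both. The MtnD difference of 2g from 1g-rot was -0.79 (SE 0.23, 95% interval -1.28 to -0.29, adjusted p = 0.094, limma). MtnC had 6.63, 7.14, 7.08 and 7.49 at 2g, against 7.70 and 7.76 at 1g-rot (-0.65, SE 0.22, adjusted p = 0.14), and MtnA had 13.61, 13.59, 13.58 and 13.71, against 13.86 and 13.79 (-0.20, SE 0.11, adjusted p = 0.37). These 3 of 4 members were lower at 2g with no overlap, against 12.3% of probe sets. However, 0 of 4 were called at a share of 2.01%, though MtnC and MtnD had unadjusted p values under 0.05. With 2g replicate 4 left out, which was the highest in MtnD, the MtnD difference was -0.93 and was called (adjusted p = 0.044). Leaving out the 2g array nearest to 1g-rot must widen the difference, so nothing is read from that call. The 3' end of eIF-4a exceeded its 5' end by 0.99 to 1.26 log2 units at 2g and by 0.62 to 0.67 at 1g-rot. For GAPDH the excess was 1.5 to 1.83 at 2g and 1.31 to 1.39 at 1g-rot. Photoreceptor medians were 7.14 to 7.62 at 2g and 7.64 to 8.14 at 1g-rot. The midgut copper cell marker was higher at 2g, with 8.41 to 8.94, against 8.32 to 8.36 at 1g-rot. Digestive enzyme medians were 11.42 to 11.55 at 2g and 11.2 to 11.405 at 1g-rot. Their part in the result was not tested.

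The rotational control itself was above the flies outside at 20 d in all 4 members. MtnD was higher by 0.75 (SE 0.27; 10.78 and 10.69 at 1g-rot, against 9.93 and 10.04 at 1g). MtnB was higher by 0.68 (SE 0.53; 7.35 and 7.45, against 6.78 and 6.66), MtnC by 0.64 (SE 0.25; 7.70 and 7.76, against 7.29 and 6.90) and MtnA by 0.19 (SE 0.12; 13.86 and 13.79, against 13.70 and 13.58). No member overlapped between these groups of 2 arrays, against 19% of probe sets higher with no overlap. All 4 adjusted p values were 1 by limma, so 0 of 4 were called, at a share of 0.00533%, though MtnC and MtnD had unadjusted p values under 0.05. The 3' excess of eIF-4a was 0.62 to 0.67 at 1g-rot and 0.79 to 0.81 at 1g. That of GAPDH was 1.31 to 1.39 at 1g-rot and 1.56 to 1.65 at 1g. The tubule marker had 8.48 to 8.64 at 1g-rot and 8.83 to 9.09 at 1g. Their part in the result was not tested.

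**Figure D2:**
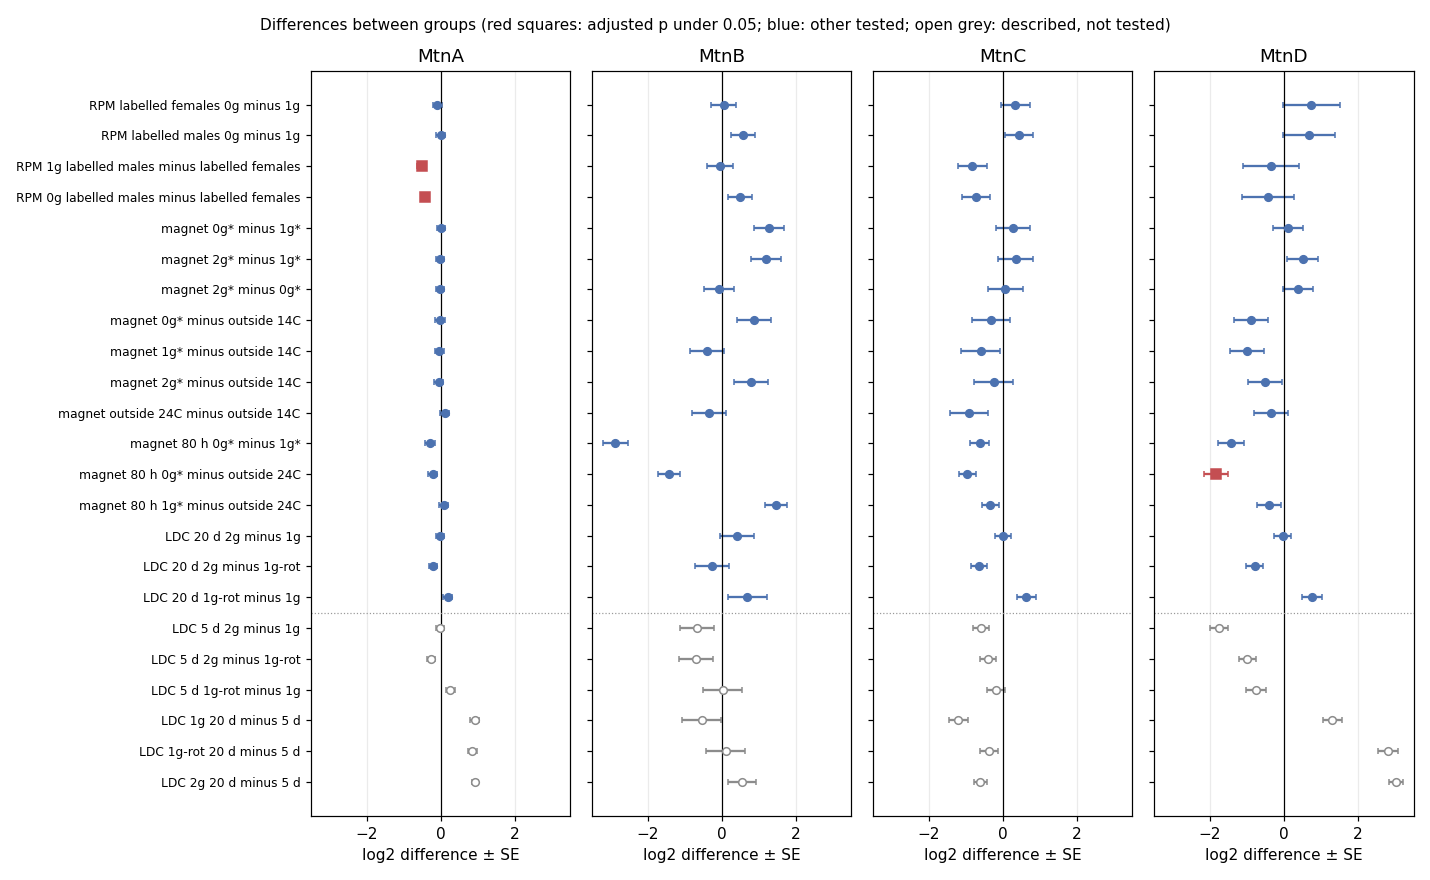
Differences between groups in each metallothionein gene (log2 difference with its SE on the horizontal axis, one row per comparison, first-named group minus second). Red squares are the 3 differences with an adjusted p under 0.05, blue points the other tested differences, and open grey points below the dotted line the LDC differences that were described only. MtnB lies at -2.88 for 80 h 0g* minus 1g* and at 1.28 for 0g* minus 1g* in the other magnet runs.

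At 5 d, the age at which the group was chosen, MtnD had 6.46, 7.18, 6.95 and 7.10 at 2g, against 7.71 and 8.12 at 1g-rot and 8.43 and 8.92 at 1g outside. The 3 groups did not overlap, with the rotational control between the others. The MtnD difference of 2g was -1.75 (SE 0.23) from 1g and -0.99 (SE 0.23) from 1g-rot, and that of 1g-rot from 1g was -0.76 (SE 0.27). MtnC followed the same order with smaller steps, with 7.59, 7.25, 7.93 and 8.01 at 2g, 8.14 and 8.07 at 1g-rot and 8.23 and 8.36 at 1g. The MtnC difference of 2g was -0.60 (SE 0.22) from 1g and -0.41 (SE 0.22) from 1g-rot, and that of 1g-rot from 1g was -0.19 (SE 0.25). The midgut copper cell marker had 7.26 to 7.82 at 2g, 7.69 to 7.74 at 1g-rot and 7.83 to 8.01 at 1g, so that it was below 1g without overlap at 2g and at 1g-rot. The tubule marker (8.46 to 8.96 at 2g, 7.84 to 8.21 at 1g-rot, 8.34 to 8.46 at 1g) and the photoreceptor median (8.0 to 8.33, 7.76 to 7.81 and 8.11 to 8.53) were lowest at 1g-rot. Digestive enzyme medians were 11.74 to 12.15 at 2g, 12.15 to 12.28 at 1g-rot and 11.97 to 12.01 at 1g. Their part in these values was not tested.

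MtnB at 5 d was the most uneven of the members. It had 5.11, 6.28, 7.35 and 7.62 at 2g, against 7.47 and 7.11 at 1g-rot and 7.37 and 7.15 at 1g. Replicates 1 and 2 at 2g lay below all arrays of both controls, and replicates 3 and 4 did not, which gave a difference of -0.67 (SE 0.46) from 1g. MtnA at 5 d was split along the same arrays, with 12.55 and 12.56 on 2g replicates 1 and 2 and 12.84 and 12.86 on replicates 3 and 4, against 13 and 12.96 at 1g-rot and 12.72 and 12.73 at 1g. Its difference of 2g from 1g-rot was -0.28 (SE 0.11), and that of 1g-rot from 1g was 0.26 (SE 0.12). Between 2g and 1g at 5 d, 2 of 4 members (MtnC and MtnD) were lower with no overlap, against 6.98% of probe sets, and 0.0586% of probe sets had an adjusted p under 0.05. Since this contrast picked the genes, nothing is read from these counts.

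Between 5 d and 20 d the members differed in different directions in the centrifuge series. MtnA was higher at 20 d by 0.92 (SE 0.12) at 1g, 0.85 (SE 0.12) at 1g-rot and 0.92 (SE 0.09) at 2g. MtnD was higher at 20 d by 1.31 (SE 0.27) at 1g, 2.82 (SE 0.27) at 1g-rot and 3.03 (SE 0.19) at 2g, the last an 8.15-fold difference in intensity. MtnC had negative differences of -1.2 (SE 0.25) at 1g, -0.38 (SE 0.25) at 1g-rot and -0.61 (SE 0.18) at 2g. MtnB differed by -0.54 (SE 0.53) at 1g and by 0.54 (SE 0.37) at 2g. For MtnA and MtnD no 5 d array reached a 20 d array under any of the 3 conditions. Without overlap between the ages were 4 of 4 members at 1g, 3 of 4 at 1g-rot and 2 of 4 at 2g, against 56.1%, 48.7% and 20.6% of probe sets. The midgut copper cell marker (1 of 2 on the list was measured) was higher at 20 d without overlap in each condition, with 8.31 to 8.58, against 7.83 to 8.01 at 5 d, at 1g, 8.32 to 8.36, against 7.69 to 7.74, at 1g-rot and 8.41 to 8.94, against 7.26 to 7.82, at 2g. Digestive enzyme medians had 20 d minus 5 d differences of -0.69 at 1g, -0.91 at 1g-rot and -0.38 at 2g, all without overlap. The tubule marker differed by 0.56 at 1g and 0.535 at 1g-rot, and photoreceptor medians by -0.435 at 1g and -0.885 at 2g, also without overlap. At 1g-rot so did the medians of eggshell genes (-2.622) and of yolk and fat body genes (-0.835), and the 3' excess of GAPDH (-0.31). The 3' excess of eIF-4a differed by -0.235 at 1g and -0.485 at 1g-rot, again without overlap. Their part in the result was not tested.

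Put together, the 2g effect on MtnD was -0.04 (SE 0.23) at 20 d and -1.75 (SE 0.23) at 5 d, and it differed between the ages by 1.72 (SE 0.33), a value that rests in part on the picking contrast and was given no test. At 20 d the order of MtnD was 1g-rot above 1g and 2g, which overlapped. At 5 d it was 1g above 1g-rot above 2g.

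In the RPM, MtnD varied widely within every group. Among arrays labelled females MtnD had 10.49, 8.99 and 7.76 at 0g, against 7.37, 8.25 and 9.39 at 1g, and among those labelled males it had 10.52, 8.11, 7.95 and 8.03 at 0g, against 7.38, 8.37 and 8.19 at 1g. The groups overlapped in each case. The 0g minus 1g difference in MtnD was 0.74 (SE 0.76, 95% interval -0.90 to 2.39) in labelled females and 0.67 (SE 0.71, -0.86 to 2.21) in labelled males. MtnC differed by 0.34 (SE 0.40) and 0.43 (SE 0.38) in the same order, and MtnB by 0.05 (SE 0.34) and 0.58 (SE 0.32).

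The limma test called 0 of 4 members at 0g in the arrays labelled females (0% of probe sets called) and 0 of 4 in those labelled males (0.00533%). Without overlap between 0g and 1g were 0 of 4 members under either label, against 12.5% of probe sets in labelled females and 6.93% in labelled males. No member had an unadjusted p under 0.05 in either, or in the test of the difference between the labels' 0g effects (0 of 4 called, 0% of probe sets). The MtnD value of 10.52 in labelled males at 0g belongs to replicate 1, the array with transcripts of both sexes, whose accessory gland median was 6.79 (3.73 to 3.88 on the other 3 arrays). MtnC was highest on the same array (10.20, against 8.12 to 8.76).

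Between the RPM labels, MtnA was the member that passed the test. MtnA had 13.31, 13.34 and 13.36 on arrays labelled males at 1g, against 13.90, 13.73 and 13.94 on those labelled females, and the arrays did not overlap. The difference was -0.52 (SE 0.12, adjusted p = 0.0023, limma) at 1g. At 0g MtnA had 13.64, 13.13, 13.28 and 13.28 on arrays labelled males, against 13.85, 13.76 and 13.67 on those labelled females, again without overlap, a difference of -0.43 (SE 0.11, adjusted p = 0.0062). Since the sex transcripts ran against these labels, the arrays with lower MtnA were those rich in eggshell transcripts.

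MtnA was thus 1 of 4 members called in each of these comparisons, where 52.4% of probe sets at 1g and 51.4% at 0g were called. Without overlap were 2 of 4 members at 1g (MtnA and MtnC), against 62.5% of probe sets, and 1 of 4 at 0g, against 50.6%. The whole arrays differed too, with medians of 5.35 to 5.54 in arrays labelled males and 5.68 to 5.85 in those labelled females. With each array centred on its median, the MtnA difference was -0.15 (adjusted p = 0.24) at 1g and -0.04 (adjusted p = 0.75) at 0g. The MtnC difference was -0.82 (SE 0.40, adjusted p = 0.11) at 1g and -0.74 (SE 0.38, adjusted p = 0.12) at 0g. Without the arrays of both sexes the MtnC difference at 1g was -0.64 and was called (adjusted p = 0.017). At 0g it was then -1.40, but 1 labelled females array is left there, at 9.90. With labelled males 0g replicate 1 alone left out, the MtnC difference at 0g was -1.16 (adjusted p = 0.00065, limma). That array had the highest MtnC of those labelled males at 0g, so leaving it out must widen the difference. Nothing is read from that call. The difference of -1.40 leaves the same array out as well. All MtnC differences given here come from arrays not centred on their medians, which differed between the labels as stated above.

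Within groups the members tended to deviate together. Over all 50 arrays, after the mean of each group was subtracted, Pearson's r was 0.72 for MtnA with MtnC, 0.69 for MtnC with MtnD, 0.61 for MtnA with MtnD, 0.59 for MtnA with MtnB, 0.54 for MtnB with MtnC and 0.41 for MtnB with MtnD. Ranked against 10695 other genes above background, MtnC was the gene whose deviations were closest to those of MtnA, and MtnA was the closest to MtnC. MtnC was also the closest to MtnD. These points share arrays, RNA quality and the mixing of sexes. On the 44 arrays without transcripts of both sexes r was 0.60 for MtnA with MtnC, 0.52 for MtnC with MtnD and 0.35 for MtnA with MtnD, and MtnC then ranked 28 for MtnA and 21 for MtnD. MtnA with MtnB (0.63) and MtnB with MtnC (0.60) were at least as high there as over all arrays.

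**Figure D3:**
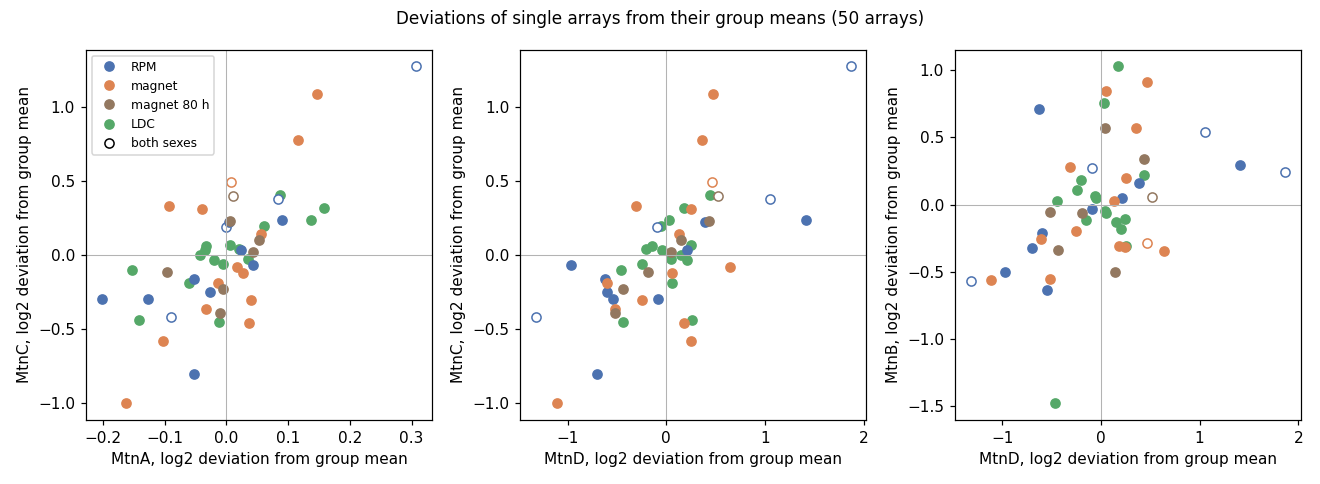
Deviation of each of 50 arrays from its group mean (log2 units on both axes) for MtnC against MtnA, MtnC against MtnD and MtnB against MtnD. Colours are the facilities and open points the 6 arrays with transcripts of both sexes, of which RPM labelled males 0g replicate 1 lies farthest out. Pearson's r over the points is 0.72, 0.69 and 0.41 from left to right.

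Between groups the pairs behaved otherwise. Over the 18 group means r was 0.60 for MtnA with MtnD and -0.15 for MtnC with MtnD. Across the 16 LDC arrays MtnA and MtnD followed age together while MtnC went the other way. These arrays fall into 2 clusters by age, so the values are a description of that split.

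For each member the 3 genes of most similar pattern were taken over the 37 magnet and LDC arrays, each of the 3 sets of arrays centred on its own mean. For MtnA they were CG8353 (r = 0.94), hh (0.93), which encodes the ligand Hedgehog, and CG11470 (0.92). With group means removed these were 0.50, 0.13 and 0.12. For MtnD they were CG8708 (0.87), the caspase gene Strica (0.84) and CG13321 (0.83), and with group means removed 0.60, 0.38 and 0.44. Across the LDC arrays alone, which fall into clusters by age, r was 0.89 to 0.96 for these 6 genes.

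For MtnC the 3 genes were levy (0.67), which encodes a cytochrome c oxidase subunit, speck (0.66), which encodes an arylalkylamine N-acetyltransferase, and the maltase gene Mal-B1 (0.65). With group means removed they kept 0.59, 0.73 and 0.59. For MtnB the values were lower, with CG32040 (0.52), Wdr81 (0.46) and scyl (0.46), which encodes an inhibitor of TOR signalling. None of these genes was a nearest gene when the arrays were left uncentred or when a facility was taken by itself.

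Other genes of metal handling were called in few of the tested comparisons. Of a list of 38 genes for metal transport, storage and sensing, 31 were measured. In 15 of the 18 tested comparisons 0 of the 31 were called by limma, with 0 to 6 at an unadjusted p under 0.05 in each. These include every magnet comparison and, in the LDC, those of the 20 d flies other than 2g against 1g-rot. At 80 h 0g* against outside, where MtnD was called, the median difference of the list was 0.06, against 0.05 over all genes. At 2g against 1g-rot at 20 d 2 of 31 rose, at 1.33% of all probe sets called higher. These were the zinc transporter gene ZnT63C (0.48, SE 0.12, adjusted p = 0.042) and Zip99C (0.59, SE 0.14, adjusted p = 0.049), and the list's median was 0.04, against -0.002 over all genes.

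Between the RPM labels 11 of 31 rose and 7 fell in arrays labelled males at 1g, and likewise 11 and 7 at 0g, where 29.8% and 22.7% of probe sets at 1g and 30% and 21.4% at 0g did so. At 1g the ferritin heavy chain gene Fer3HCH (adjusted p = 4.5e-10) and the copper importer gene Ctr1C (adjusted p = 1.2e-07) fell by limma's test. Fer3HCH had 3.63 to 3.80 and Ctr1C 3.77 to 3.98 on labelled males 1g arrays, above background on 0 of 3 of them, against 6.76 to 6.91 and 5.55 to 5.94 on labelled females 1g arrays, so the size of each difference is only a lower bound. The zinc transporter gene foi rose by 1.93 (SE 0.18, adjusted p = 4.5e-07).

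MTF-1, the activator of the members, lay between 7.50 and 8.95 log2 units on the 50 arrays. It was called in 2 comparisons, both between the RPM labels (0.85, SE 0.16, adjusted p = 3e-04 at 1g and 1.03, SE 0.15, adjusted p = 3.4e-05 at 0g), where it was higher in the arrays with lower MtnA. That MtnA difference was not called with arrays centred on their medians, so no relation between the 2 genes is read from it. The copper exporter gene ATP7 lay between 6.14 and 7.39 and was likewise called between the RPM labels only. The copper importer gene Ctr1A (7.24 to 8.37) and the ferritin genes Fer1HCH (12.74 to 13.76) and Fer2LCH (11.84 to 13.71) were called in 0 of 18 tested comparisons by limma, with unadjusted p values under 0.05 in 4, 2 and 2 of them. Ctr1B (3.27 to 4.31) was also called in none, had no unadjusted p under 0.05 and lay within or below the range of the background. In the LDC comparisons of age, which were given no test, both ferritin genes were higher at 20 d without overlap. Fer1HCH was higher by 0.545 at 1g, 0.655 at 1g-rot and 0.515 at 2g, and Fer2LCH by 0.685, 0.835 and 0.645. Ctr1A differed by -0.295, -0.4 and -0.053 in that order. Of the zinc exporter genes, ZnT35C was called between the RPM labels in both comparisons.

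**Figure D4:**
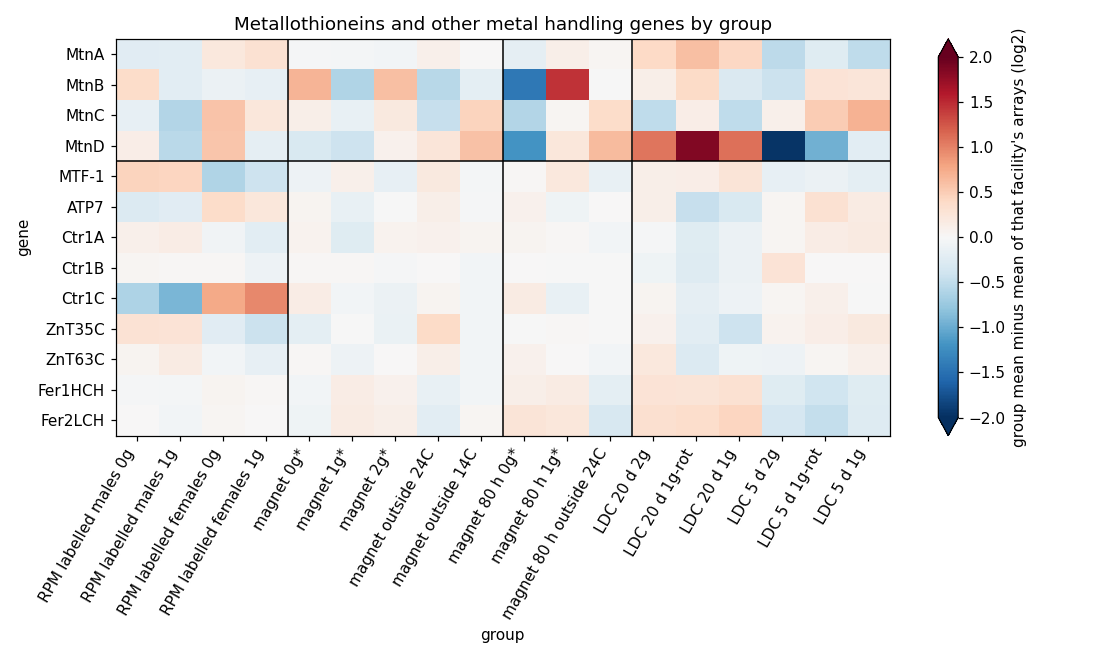
Group mean minus the mean of that facility's arrays (colour, log2 units, clipped at -2 and 2) for the 4 metallothionein genes above the line and 9 other metal handling genes below it, in 18 groups along the horizontal axis. The strongest colours are MtnB at 80 h 0g* and 1g*, MtnD at 80 h 0g* and in every LDC group but 5 d 1g, and Ctr1C in both RPM 1g groups.

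Of 25 antioxidant and glutathione genes 17 were measured. Between the RPM labels 3 rose and 7 fell at 1g, and 3 rose and 6 fell at 0g, where 29.8% and 22.7% of probe sets at 1g and 30% and 21.4% at 0g did so. At 2g against 1g-rot at 20 d 1 of 17 fell, the glutathione transferase gene GstE1 (-0.74, SE 0.13, adjusted p = 0.01, limma), at 0.682% of all probe sets called lower. In the other 15 tested comparisons limma called 0 of 17, with 0 to 6 at an unadjusted p under 0.05 in each.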

How the data were processed

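Whole-fly total RNA was measured on the Affymetrix Drosophila 2.0 array. The authors deposited log2 intensities after RMA. The submitters' processing notes name RMA and limma, with the version of neither stated in the sources used here. RMA shares one normalization over arrays, which can compress high intensities. Sequencing depth does not apply, and the number of arrays limits the precision. Of 18952 probe sets 183 are controls, and the other 18769 were tested. A gene took the probe set whose only symbol in the array annotation it was.

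Group means were fitted in limma 3.58.1 (R 4.3.3) separately for the RPM (13 arrays), the LDC (16), the 80 h magnet runs (7) and the other magnet runs (14). P values were adjusted by Benjamini and Hochberg over the 18769 probe sets, and an adjusted p under 0.05 was called. Of 25 comparisons 18 were tested and 7, which share arrays with the contrast that picked MtnD, were described. Groups follow the sample titles. An array was taken to hold both sexes where the yolk protein genes had a median over 7 and the accessory gland genes one over 5. No array was a copy of another (highest correlation 0.9963). The members and lists were chosen with earlier results of these data known. Genes named were the 4 members, 9 metal handling genes whatever their values, up to 4 genes per list and comparison with the smallest p among those called, and the 3 nearest genes of each member. Fits were tested on simulated data. Alternatives were repeated quantile normalization, median centring, a filter on dim probe sets, a variance trend, only the groups compared, a block of replicate number or array letter, no arrays of both sexes, and each array left out.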

Additional observations from a re-analysis of the deposited data

Results flagged for a closer look

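MtnD on replicate 1 of the RPM labelled males 0g arrays, at 10.52, stood apart from the other 3 arrays of its group (7.95 to 8.11). The gap took 0.938 of the group's range. In all 12 sets of values were examined, and how often so large a gap arises by chance was not tested. This array is also the one of its group with transcripts of both sexes.

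The difference of 1g-rot from 1g in the LDC ran in opposite directions at the 2 ages in MtnC (0.64 at 20 d and -0.19 at 5 d, 0.83 apart) and in MtnD (0.75 at 20 d and -0.76 at 5 d, 1.51 apart), with no overlap between arrays at either age. These differences between ages were not tested.

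The difference of 0g* from 1g* in MtnB was -2.88 in the 80 h magnet runs and 1.28 in the other runs, a difference between the sets of -4.16 (SE 0.63, adjusted p = 0.016 by limma over 21 magnet arrays). The comparison was chosen after seeing the data.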

How the results depend on the processing

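The count of members called in a comparison was within 1.5 times the main count in 225 of 244 alternatives. In most comparisons the main count was 0, and a count that stayed at 0 is included there. Every comparison with a main count of 1 moved under some of the alternatives. For RPM labelled males minus labelled females at 1g (main count 1) it was 0 with arrays centred on their medians and 2 with only the groups compared or without arrays of both sexes. At 0g (main 1) it was 1 to 2 with single arrays left out, among them labelled males 0g replicate 1, whose omission must widen the MtnC difference. Without arrays of both sexes 1 labelled females 0g array is left, so no count is read there. For 80 h 0g* minus outside 24C (main 1) it was 2 with only the groups compared or a variance trend, and 0 with any single array left out. For 80 h 0g* minus 1g* (main 0) it was 1 with a variance trend. Leaving out an array of either group there leaves 1 array in it, so no count is read from those fits. For 80 h 1g* minus outside 24C (main 0) it was 1 with dim probe sets left out or a variance trend, and 0 to 1 with single arrays left out. For LDC 20 d 2g minus 1g-rot (main 0) it was 0 to 1 with single arrays left out. The causes were not tested.

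Replicate numbers were not treated as pairs in the main fits. In 0 of 8 comparisons with 3 or more pairs did every pair correlate above 0.1 in its deviations from group means. With so few pairs this rule cannot show that pairing was absent. With the replicate block the count for LDC 20 d 2g minus 1g-rot was 2 (MtnC and MtnD), and it moved no other count. In 2 of those 8 comparisons every array correlated best with its own number.

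Of the differences named, those that changed direction were MtnC for outside 24C minus outside 14C (0.23 with 24C replicate 1 placed at 14C), MtnB for LDC 20 d 2g minus 1g (-0.064 with the replicate block) MtnD for LDC 20 d 2g minus 1g (-0.182 to 0.112 with single arrays left out) and MtnB for RPM labelled females 0g minus 1g (-0.075 with quantile normalization repeated, -0.02 with arrays centred on their medians, -0.203 to 0.333 with single arrays left out). MtnB's gap between the sets of magnet runs was -3.96 without arrays of both sexes. The alternative of another probe set per gene could not be run, since each member has 1, and a block of array letter could not be fitted for LDC 2g against its controls or between the RPM labels.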
